A study of Mus musculus with 16 samples.

Results

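The collagen chains on the array were taken as every gene probe whose gene name has the form Col, a type number, the letter a and a chain number. This gave 78 of 41174 gene probes and 40 genes, with no measured value used in the choice. They comprised 11 fibrillar chain genes with 25 probes, 6 type IV (basement membrane) chain genes with 13 probes and 23 genes of other collagen classes with 40 probes. A probe was tested where its signal stood well above the local background on at least 2 of the 16 arrays, as 65 of the 78 did, and 37 of the 40 genes had such a probe. The other 3 genes, Col4a3, Col19a1 and Col28a1, are not described further. Each gene is given by its probe with the highest mean over all arrays, and 12 of the 40 genes had 1 probe only.

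Collagens are proteins of 3 polypeptide chains wound into a triple helix, in which every chain is encoded by its own gene. Fibrillar chains, such as those of types I, III and V, assemble into the banded fibrils of connective tissue and are made in quantity by fibroblasts, among them the embryonic fibroblasts often used as feeder cells for pluripotent cultures. Type IV chains form the network of basement membranes, the sheets that underlie epithelia, and in the early mouse embryo the parietal endoderm secretes them in large amounts. The remaining classes bind to fibrils (the FACIT collagens), form beaded filaments or short-chain networks, anchor basement membranes, or span the cell membrane.

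RNA of mouse pluripotent stem cell cultures was hybridised to one-colour arrays that fell into 7 groups. From the non-obese diabetic (NOD) strain came 2 arrays of the EpiSC-like iPS line numbered 6, at passages 7 and 12, 4 of the EpiSC-like ES line numbered 1, at passages 5, 7, 9 and 10, and 3 of NOD ES cells. Marked as non-NOD were 2 arrays of EpiSC iPS cells, 2 arrays of EpiSC (passages 12 and 20), 1 array of 129 ES cells labelled epiESM and 2 arrays of 129 ES cells labelled mESM, both 129 conditions at passage 8. ES cells hold the naive pluripotency seen before implantation, EpiSC (epiblast stem cells) the primed form seen after it, and iPS cells were made by reprogramming. What epiESM and mESM stand for is not given in the labels, and no treatment, age or transgene is named in words. Each NOD ES array and each EpiSC iPS array also carries its own code, whose meaning is not given. The letters are K for NOD ES replicate 1 and EpiSC iPS replicate 2, and KP/CH, KP and M for the others. These arrays were pooled by group, and whether a code marks a line, treatment or transgene is not known. Each EpiSC-like group is passages of 1 line, the labels do not say that the arrays of the other groups are separate cultures, and p-values therefore measure the spread between these arrays alone. Before RNA was taken, ES cultures were depleted of embryonic fibroblasts by preplating, and colonies of EpiSC and of the EpiSC-like lines were picked apart by hand, per the labels' protocols. The RNA of a culture comes from all its cells, so more cells of a type and more RNA per cell cannot be told apart.

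Levels are log2 of the spot signal minus the 75th percentile of the array, so that 0 is a signal at that percentile. They can be compared between arrays for a probe, not between probes. Between 26.3% (NOD ES replicate 1) and 88.5% (EpiSC-like ES passage 10) of gene spots stood well above background. The arrays of NOD ES replicate 1 and EpiSC iPS replicate 2 lay nearer to another group than to their own over all genes. The SD of the log2 difference of EpiSC iPS replicate 2 was 0.387 from NOD ES replicate 2 and 0.963 from EpiSC iPS replicate 1, and that of NOD ES replicate 1 was 0.697 from EpiSC iPS replicate 1 and 1.13 from NOD ES replicate 2. Comparisons of the collagen chains that rest on these arrays are given with and without both. Other gene lists are given with both, and the fibroblast markers in part also without. The naive marker Zfp42 averaged -4.06 in the iPS line, -4.89 in the ES line and 5.34 in NOD ES cells, and -5.68 in EpiSC against 4.81 in mESM cells. In the EpiSC iPS arrays Zfp42 averaged 5.11 and the primed marker Fgf5 -2.43, against -5.68 and 2.94 in EpiSC, so their naive and primed markers lay on the ES side. The core factor Pou5f1 averaged -3.91 and -1.18 in the iPS and ES EpiSC-like lines, 3.47 in EpiSC iPS cells, 0.58 in EpiSC, 3.46 in NOD ES cells, 3.50 in epiESM cells and 4.44 in mESM cells.

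Over the 37 chains, most values were higher than in the mESM arrays on every other array, and the blocks of high values differed by class. Col1a1, Col3a1 and Col6a3 lay above both mESM arrays on all 14 other arrays, while Col9a2, Col13a1, Col17a1 and Col18a1 lay below both on all 14.

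**Figure D1:**
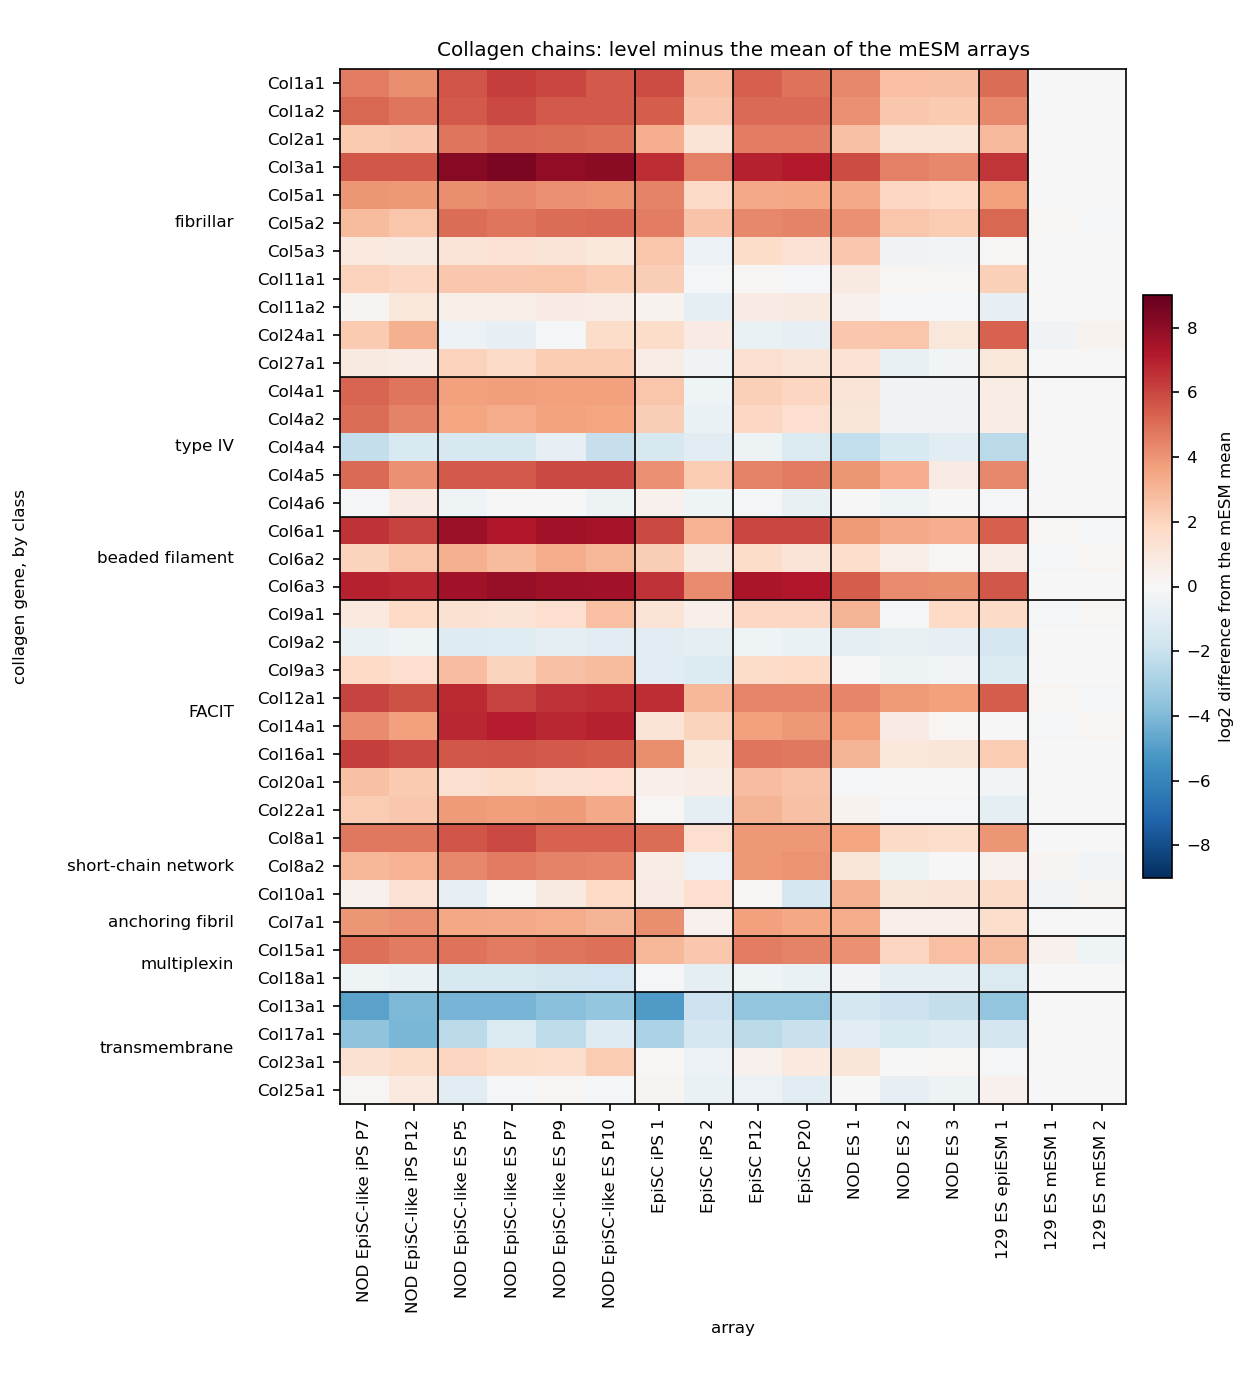
Level of each of the 37 tested collagen genes (down the page, by class) on each of the 16 arrays (left to right), as the log2 difference from the mean of the 2 mESM arrays on a colour scale of -9 to 9. Red is above and blue below the mESM mean, P gives the passage, and Col4a5, Col6a1, Col12a1, Col14a1 and Col15a1 are among the chains that no mESM array measured well above background. Col3a1 was at -2.91 and -2.84 in mESM cells and at 1.46 or more on every other array, and Col13a1 was below that mean on the 14 other arrays.

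The first comparison asks how the NOD EpiSC-like lines, both weighted equally, differ from NOD ES cells. In the lines 24 of the 37 chains rose and 2 fell at an adjusted p under 0.05 (limma, Benjamini-Hochberg over 23192 genes), where 16.7% of all genes tested rose and 22% fell. Of the 11 fibrillar chains 7 rose and none fell, with a median log2 difference of 1.73, and of the 5 type IV chains 3 rose and none fell, with a median of 2.52. The median of all genes was -0.27. By chain, Col4a1 and Col4a2 differed by more than any fibrillar chain in this comparison.

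Col1a1, the main chain of type I collagen, stood at 5.58 and 5.17 in the iPS line and at 6.69, 7.24, 7.0 and 6.49 in the ES line (passages 5, 7, 9 and 10), against 5.33, 3.67 and 3.62 in NOD ES cells. The iPS line at passage 12 lay below NOD ES replicate 1, so the groups overlapped, and the other NOD ES arrays lay below every array of the lines. The log2 difference was 1.91 ± 0.61 (SE), 3.75-fold, with an adjusted p of 0.0267.
Its partner chain Col1a2 stood at 6.69 and 6.38 in the iPS line and at 7.09, 7.45, 7.03 and 7.05 in the ES line, against 5.68, 3.98 and 3.89 in NOD ES cells. All arrays of the lines were higher than all NOD ES arrays, with a log2 difference of 2.33 ± 0.57, 5.02-fold, and an adjusted p of 0.00692.
Col3a1, the chain of the homotrimeric type III collagen of elastic tissues, stood at 2.69 and 2.74 in the iPS line and at 5.29, 5.57, 5.14 and 5.25 in the ES line, against 3.02, 1.67 and 1.46 in NOD ES cells. Both iPS arrays lay between NOD ES replicate 1 and the other NOD ES arrays, and the 4 arrays of the ES line lay above all others. The log2 difference was 1.96 ± 0.44 with an adjusted p of 0.00418.
Col2a1, the chain of cartilage type II collagen, rose by 1.97 ± 0.43 with overlapping groups, and Col11a1, which joins type II fibrils, rose by 1.83 ± 0.41 with no overlap. Col5a1, a chain that helps start type I fibrils, rose by 1.73 ± 0.52 with no overlap, and Col27a1 rose by 1.31 ± 0.39. Of 7 chondrocyte markers other than collagens 2 rose and none fell in this comparison, where 16.7% of all genes rose and 22% fell. The 4 fibrillar chains that did not pass were Col5a2 at 0.88 ± 0.46, Col11a2 at 0.60 ± 0.26, Col5a3 at 0.37 ± 0.67 and Col24a1 at -0.55 ± 0.54.

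The stretches before the transcript starts of Col1a2 and Col3a1 are shown because both chains rose in the NOD lines and in EpiSC, while between the 2 NOD lines Col3a1 passed the main fit and Col1a2 did not. That contrast depended on the setting. Without NOD ES replicate 1 and EpiSC iPS replicate 2, Col1a2 passed too, at -0.63 (limma, adjusted p 0.00777). With the slide as a fixed term Col3a1 did not pass. The stretches are the 250 bases before the RefSeq start in mouse build GRCm38.p6, for Col1a2 at chr6:4505368-4505617 and for Col3a1 at chr1:45311288-45311537, both on the plus strand, written 5′ to 3′. Capitals mark a match on either strand to the CCAAT box, to the GC box GGGCGG or to the TATA box TATAAA.
Col1a2: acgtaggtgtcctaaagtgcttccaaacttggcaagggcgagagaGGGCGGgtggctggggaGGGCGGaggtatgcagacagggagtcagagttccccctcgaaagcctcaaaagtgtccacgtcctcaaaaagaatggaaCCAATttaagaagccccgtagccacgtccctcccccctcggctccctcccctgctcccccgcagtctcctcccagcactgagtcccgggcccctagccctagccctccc
Col3a1: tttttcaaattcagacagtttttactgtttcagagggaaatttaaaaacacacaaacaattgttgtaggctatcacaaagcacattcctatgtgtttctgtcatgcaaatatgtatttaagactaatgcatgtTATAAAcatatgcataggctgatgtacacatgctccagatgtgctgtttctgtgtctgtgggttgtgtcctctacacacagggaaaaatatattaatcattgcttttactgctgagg
The Col1a2 stretch was 62% G and C and held GGGCGG at 2 positions and CCAAT 105 bases before the start. The Col3a1 stretch was 35.2% G and C and held TATAAA 112 bases before the start but neither of the other motifs. Of 35 such stretches of 32 member genes, 19 held GGGCGG, 12 CCAAT and 5 TATAAA, where 32.7%, 33.8% and 12.4% of all 32851 promoter stretches in the RefSeq table held them. The motifs do not overlap one another in letters, and a match describes the sequence alone.

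Among the type IV chains, Col4a1 and Col4a2 together make the most common basement membrane network. Col4a1 stood at 5.57 and 5.12 in the iPS line and at 3.98, 4.10, 4.01 and 3.98 in the ES line, against 1.46, 0.02 and 0.02 in NOD ES cells. Every array of the lines was at least 2 log2 units above every NOD ES array, and the iPS line was the higher of the lines. The log2 difference was 4.18 ± 0.53, 18.2-fold, with an adjusted p of 7.95e-05.
Col4a2 stood at 5.32 and 4.73 in the iPS line and at 3.84, 3.64, 3.95 and 3.87 in the ES line, against 1.39, -0.04 and -0.02 in NOD ES cells. The groups were again apart, by 3.99 ± 0.52 on the log2 scale, 15.8-fold, with an adjusted p of 0.000104.
Col4a5, a chain of the type IV network of kidney, lung and smooth muscle, rose by 2.52 ± 0.62 (adjusted p 0.00713) with no overlap, although only 1 of the 3 NOD ES arrays measured it well above background. Col4a4 differed by -0.07 ± 0.37 and the Col4a6 probe used by 0.14 ± 0.27, and neither passed.

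Col4a1 and Col4a2 are a head-to-head gene pair, and the sequence between their starts is shown because the differences of both chains were close in each comparison. In RefSeq's annotation of GRCm38.p6, Col4a1 starts on the minus strand at position 11312826 and Col4a2 on the plus strand at position 11312805 of chromosome 8. Their transcripts share 22 bases at chr8:11312805-11312826, given here on the plus strand with GGGCGG in capitals.
Col4a1 and Col4a2, start to start: agtgcgcGGGCGGcgtctccaa
Col4a6 and Col4a5 on chromosome X are a pair of the same kind, with starts 1343 bases apart at 141474076 on the minus strand and 141475419 on the plus strand.

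**Figure D2:**
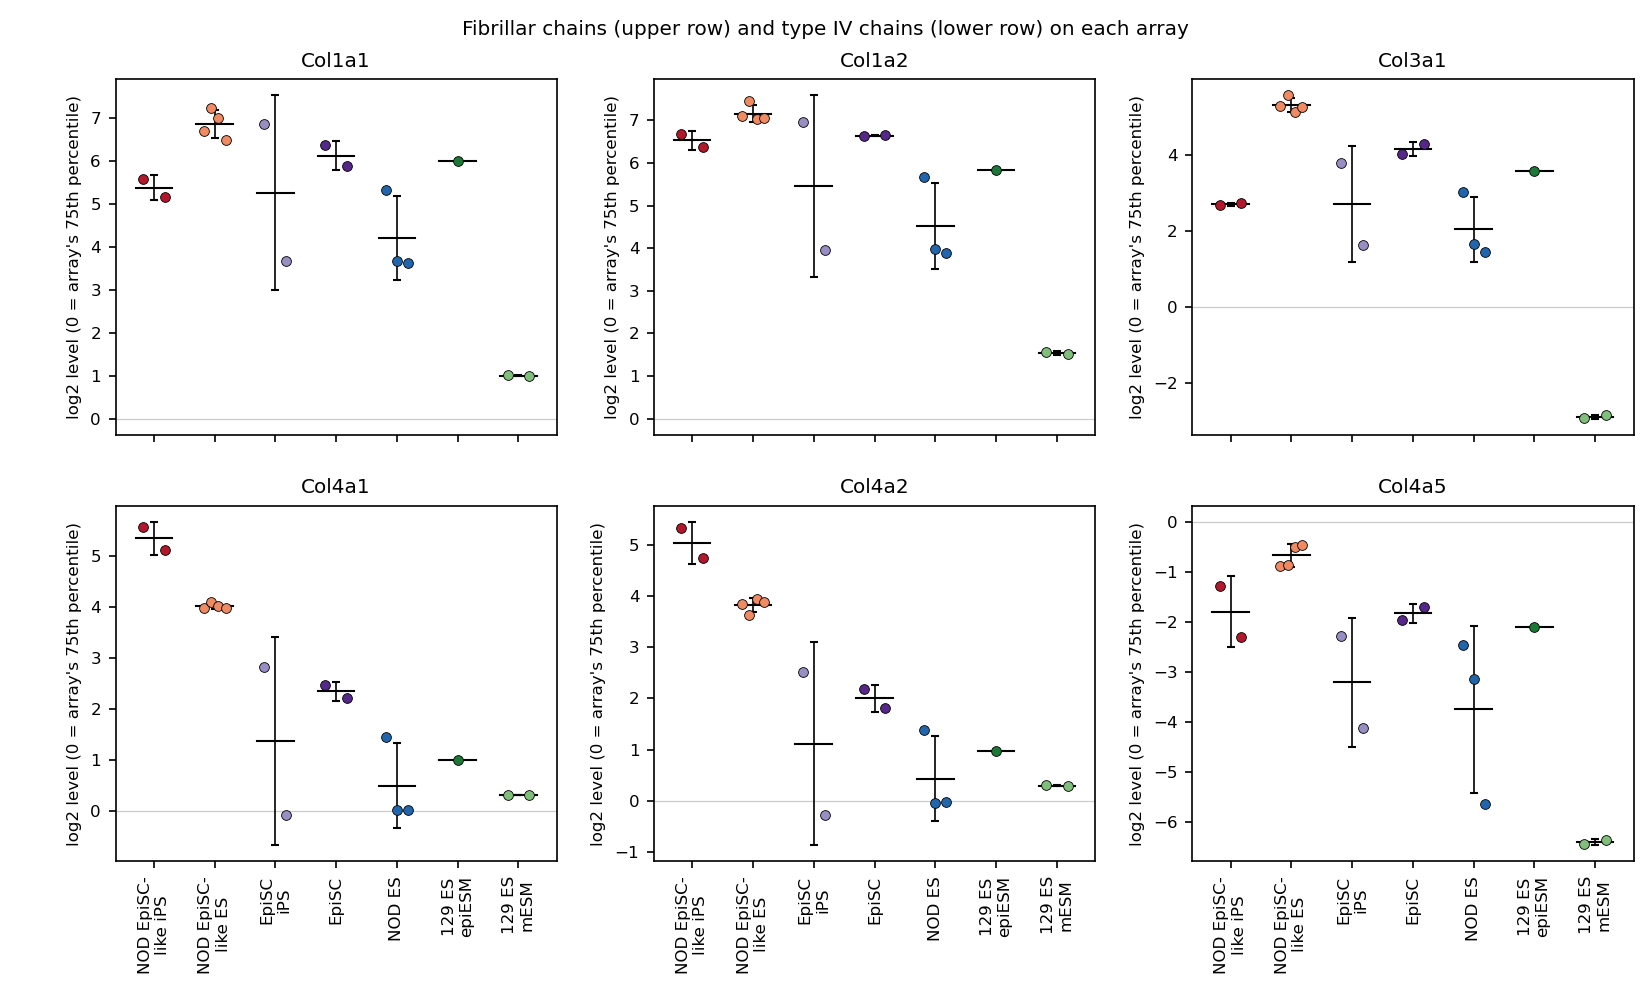
Log2 level of the fibrillar chains Col1a1, Col1a2 and Col3a1 (upper row) and the type IV chains Col4a1, Col4a2 and Col4a5 (lower row), with a point per array, a line at the group mean and a bar of 1 SD where a group has more than 1 array. The type IV pair was highest in the iPS line at 4.73 to 5.57, while Col3a1 was highest in the ES line at 5.14 to 5.57 and lowest in mESM cells at -2.91 and -2.84.

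Of the 21 other chains tested, 14 rose and 2 fell. The FACIT chain Col16a1 rose by 4.11 ± 0.63, at 4.95 and 4.68 in the iPS line and 4.19 to 4.37 in the ES line, against 1.80, -0.32 and -0.18 in NOD ES cells. Col8a2, a chain of the short-chain network of vessels and cornea, rose by 3.55 ± 0.34, 11.7-fold, and its partner Col8a1 by 2.86 ± 0.66. The beaded filament chains Col6a1 and Col6a3 rose by 3.40 ± 0.47 and 2.63 ± 0.43.
The FACIT chains Col22a1 and Col9a3 rose by 2.98 ± 0.23 and 2.34 ± 0.21, with adjusted p of 2.49e-06 and 7.68e-06. Col14a1, also a FACIT chain, was not well above background on any NOD ES array and was at least 5.20-fold higher in the lines (against the dimmest signal still well above background on each of these arrays). The 2 that fell were transmembrane collagens that neither iPS line array measured well above background, Col13a1 at least 4.85-fold lower (adjusted p 0.00581) and Col17a1 at least 1.98-fold lower (adjusted p 0.00296).

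Without NOD ES replicate 1 and EpiSC iPS replicate 2, 27 chains rose and 2 fell in this comparison, where 23.4% of all genes rose and 28.3% fell. Col1a1 then differed by 2.47, Col4a1 by 4.66 and Col4a2 by 4.46. Col5a2, Col5a3 and Col11a2 then passed, at 1.45, 1.26 and 0.76. With the normexp background correction the median of all genes moved to 0.59, Col4a1 at 2.70 (adjusted p 0.00465) and Col4a2 at 2.46 (adjusted p 0.011) still passed, and Col1a1 at 0.64 (adjusted p 0.399), Col1a2 at 1.20 (adjusted p 0.117) and Col3a1 at 0.99 (adjusted p 0.13) did not. With the slide as a fixed term Col4a1 at 4.68 and Col4a2 at 4.67 passed, and Col1a1 at 2.03 (adjusted p 0.293), Col1a2 at 2.78 (adjusted p 0.145) and Col3a1 at 2.31 (adjusted p 0.111) did not. On slide 4, which alone held arrays of both sides, EpiSC-like ES passage 10 exceeded the mean of NOD ES replicates 2 and 3 by 2.74 in the fibrillar median and 3.90 in the type IV median.

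The same question for non-NOD cells sets EpiSC against mESM cells. In EpiSC 19 of the 37 chains rose and 2 fell, where 11.9% of all genes rose and 12.7% fell. Of the fibrillar chains 6 of 11 rose, with a median of 3.45, and of the type IV chains 1 of 5 rose, with a median of 1.70, while the median of all genes was -0.34. Col3a1 and Col6a3 had the 2 largest differences among the chains well above background on both sides.

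Col3a1 stood at 4.02 and 4.28 in EpiSC, against -2.91 and -2.84 in mESM cells. That is a log2 difference of 7.03 ± 0.62, 130-fold, with an adjusted p of 2e-05. Col6a3, the large chain of beaded filaments, stood at 3.32 and 3.23 in EpiSC, against -4.04 and -3.97 in mESM cells, which is 7.28 ± 0.60 on the log2 scale.
Col1a1 stood at 6.37 and 5.88 in EpiSC, against 1.01 and 0.99 in mESM cells, and rose by 5.12 ± 0.84, 34.9-fold. Col1a2 rose by 5.10 ± 0.79, Col2a1 by 4.59 ± 0.59, Col5a2 by 4.39 ± 0.64 and Col5a1 by 3.45 ± 0.72. Each of these 6 fibrillar chains was higher in both EpiSC arrays than in both mESM arrays. The remaining fibrillar differences did not pass and lay between -0.68 for Col24a1 and 1.46 for Col5a3.
Col4a1 stood at 2.47 and 2.22 in EpiSC, against 0.30 and 0.31 in mESM cells. Its difference of 2.04 ± 0.73 had an adjusted p of 0.0653 and that of Col4a2, 1.70 ± 0.73, one of 0.114, so neither passed. Without the 2 arrays that lie apart 26 chains rose and 4 fell, where 20.8% of all genes rose and 25% fell. Col4a1 and Col4a2 then passed at the same values, with adjusted p of 1.18e-05 and 0.000179. Col4a5 was the type IV chain that rose, by at least 8.65-fold, since no mESM array measured it well above background.

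Among the other classes, Col6a1 was at least 62.4-fold, Col15a1 at least 6.81-fold, Col14a1 at least 5.87-fold and Col12a1 at least 5.31-fold higher in EpiSC. Col16a1 rose by 4.78 ± 0.87, Col8a2 by 3.97 ± 0.48 and Col8a1 by 3.92 ± 0.91. Col13a1 at -3.52 ± 0.76 and Col17a1 at -2.22 ± 0.50 fell, the same 2 transmembrane chains that fell in the NOD lines. The mESM arrays carry 1 source label and may be 1 culture, and they share no slide with EpiSC, so slide and group cannot be told apart here.

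**Figure D3:**
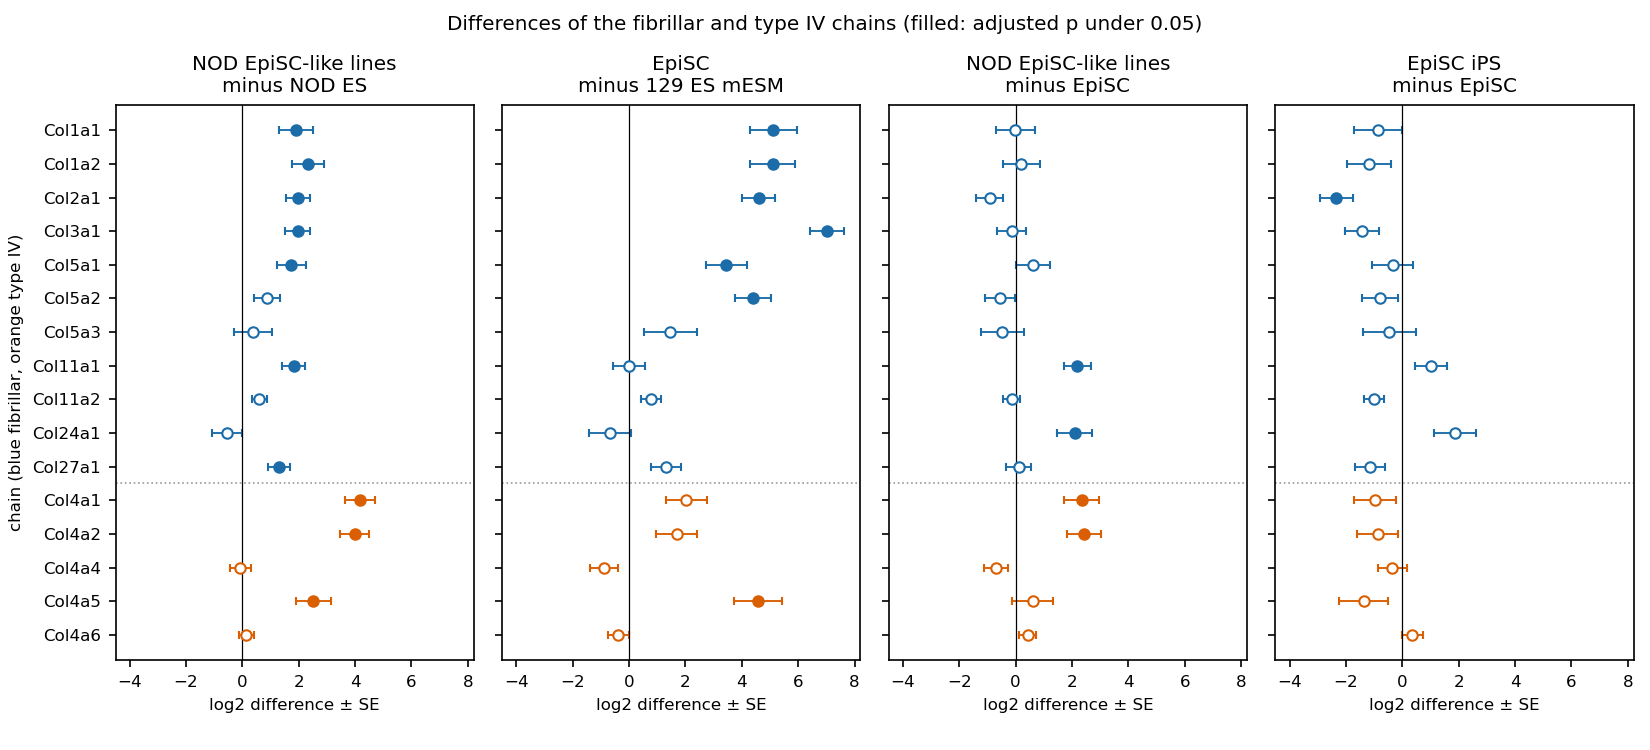
Log2 difference with its SE of the 11 fibrillar chains (blue) and 5 type IV chains (orange) in 4 comparisons, with filled points for an adjusted p under 0.05. Col4a1 and Col4a2 pass in the comparisons of the NOD EpiSC-like lines with NOD ES cells (4.18 and 3.99) and with EpiSC (2.34 and 2.42), while Col1a1 and Col1a2 lie near 0 in the panel of the lines against EpiSC (-0.01 and 0.20).

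Whether the state difference was of the same size in NOD and non-NOD cells was tested as an interaction, the NOD difference minus the non-NOD one. The lines did not reach the primed marker levels of EpiSC. Fgf5 was -2.27 and -2.19 in the iPS line and 0.87 to 1.22 in the ES line, against 2.95 and 2.92 in EpiSC. All 5 primed epiblast markers were lower in the interaction (median -4.81), so strain and the state reached cannot be told apart. Results for the collagen chains follow. The state difference was lower in NOD cells for 5 of the 37 chains and higher for none (limma, with 4 higher at an unadjusted p under 0.05), where 7.52% of all genes were lower and 5% higher. Fibrillar chains were 3 of the 5: Col3a1 at -5.06 ± 0.76 (adjusted p 0.00209), Col5a2 at -3.51 ± 0.78 (adjusted p 0.0145) and Col2a1 at -2.62 ± 0.73 (adjusted p 0.0378). The others were Col6a3 at -4.65 and Col15a1. No mESM array measured Col15a1 well above background, and its interaction was -0.82 with those arrays at their bound. For Col3a1 and Col6a3, the largest of these, the lines minus EpiSC gave -0.14 and -0.02, and NOD ES minus mESM cells gave 4.92 and 4.63. For Col4a1 the interaction was 2.15 and for Col4a2 2.29, in the other direction and not past the threshold (adjusted p 0.156 and 0.127). Without NOD ES replicate 1 and EpiSC iPS replicate 2, the interaction was lower for 11 chains and higher for 6. Col4a1 at 2.62, Col4a2 at 2.76 and Col1a1 at -2.65 passed then. More of all genes passed without these arrays too, such as 28.6% and 22% between the lines, against 14.1% and 11.6%. These counts therefore say nothing particular to collagens. With normexp none of the 37 chains passed (limma, with 10 at an unadjusted p under 0.05). Of all genes 0.0302% were higher and 0.0992% lower with normexp.

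The NOD EpiSC-like lines were also set against EpiSC. Of the 37 chains 5 rose and 1 fell in the lines, where 7.86% of all genes rose and 8.2% fell (6.43% and 9.87% after quantile normalization). The share of chains that rose, 5 of 37, was not far above that of all genes. The fibrillar median was -0.01 and the type IV median 0.60, beside 0.27 for all genes.

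Col4a1 and Col4a2 were among the 5. Their levels of 3.98 to 5.57 and 3.64 to 5.32 in the lines were all above those in EpiSC, which were 2.47 and 2.22 for Col4a1 and 2.19 and 1.81 for Col4a2. The log2 differences were 2.34 ± 0.61 (adjusted p 0.0241) and 2.42 ± 0.60 (adjusted p 0.0192). Col11a1 rose by 2.19 ± 0.47, at 0.41 and 0.26 in the iPS line and 0.80, 0.80, 0.85 and 0.68 in the ES line, against -1.53 and -1.73 in EpiSC.
Col24a1, a fibrillar chain of developing bone, was at least 1.55-fold higher (adjusted p 0.0406), with its probe well above background on neither EpiSC array and on 1 of the 4 ES line arrays, and with overlapping groups. Col23a1, a transmembrane chain, rose by 1.07 ± 0.32. The FACIT chain Col20a1 fell, at -0.69 ± 0.17. Col1a1 differed by -0.01 ± 0.70, Col1a2 by 0.20 ± 0.66, Col3a1 by -0.14 ± 0.51 and Col5a1 by 0.61 ± 0.60, none past the threshold.

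Col4a1 and Col4a2 did not pass with normexp, at 0.91 (adjusted p 0.273) and 0.94 (adjusted p 0.285), beside a median of 0.71 for all genes under that correction. Without EpiSC replicate 1 their differences were 2.46 and 2.61 (adjusted p 0.13 and 0.105) and without replicate 2 they were 2.21 and 2.23 (adjusted p 0.183 and 0.171), so neither passed. Without NOD ES replicate 1 and EpiSC iPS replicate 2, 12 chains rose and 5 fell, where 21.7% of all genes rose and 19.5% fell. Within slide 1 the lines exceeded EpiSC by 2.36 in Col4a1 and 2.29 in Col4a2, and within slide 3 the ES line exceeded EpiSC by 1.76 and 2.03.

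The 2 NOD EpiSC-like lines were set against each other. In the iPS line 4 chains rose and 8 fell relative to the ES line, where 14.1% of all genes rose and 11.6% fell (12.2% and 13.9% after quantile normalization). Of the fibrillar chains 3 fell and 1 rose, with a median of -0.63, and of the 5 type IV chains none passed and 0 had an unadjusted p under 0.05, with a median of 0.56. The median of all genes was 0.28, and 1 line per side means that iPS origin and the particular line cannot be told apart.

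Col3a1 stood at 2.69 and 2.74 in the iPS line, against 5.14 to 5.57 in the ES line. It fell, at -2.60 ± 0.53 with an adjusted p of 0.00486. Col2a1 was at 0.65 and 0.74 in the iPS line, against 3.12 to 3.40 in the ES line, a difference of -2.59 ± 0.51 (adjusted p 0.00394). Col5a2 fell, at -2.34 ± 0.55, while its partner in type V collagen, Col5a1, differed by -0.22 ± 0.63 and did not pass.
Col24a1 was the fibrillar chain that rose, by 2.71 ± 0.65, and 1 of the 4 ES line arrays measured it well above background. Col14a1 fell, at -2.91 ± 0.73, Col8a2 at -1.42 ± 0.41, Col22a1 at -1.34 ± 0.28 and Col9a3 at -0.92 ± 0.25, and Col17a1 was at least 1.60-fold lower in the iPS line. Col18a1, the parent of endostatin, rose by 1.06 ± 0.25, Col20a1 by 0.99 ± 0.17 and Col9a2 by 0.54 ± 0.17.

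Col4a1 was 1.33 ± 0.64 and Col4a2 1.20 ± 0.63 higher in the iPS line without passing (adjusted p 0.144 and 0.176), although both iPS arrays lay above all 4 arrays of the ES line. Without the 2 arrays that lie apart, which belong to neither line but enter the shared estimate of spread, these differences passed with adjusted p of 8.5e-05 and 0.000646. Col1a1 at -1.48 and Col1a2 at -0.63 also passed then, and 8 chains rose and 17 fell, where 28.6% of all genes rose and 22% fell. With normexp the median of all genes moved to 0.77 and the differences of Col4a1 and Col4a2 changed sign, to -0.59 and -0.77, without passing. That of Col3a1 was -3.84 with normexp. With the slide as a fixed term 1 of the 37 chains passed, Col14a1, where 4.93% of all genes rose and 4.27% fell. In limma Col3a1 at -2.75 (adjusted p 0.105) and Col2a1 at -2.68 (adjusted p 0.0974) did not pass then. Nor did Col5a2 at -1.98 (adjusted p 0.186) and Col24a1 at 3.03 (adjusted p 0.0598). Within slide 1, which held 1 array of each line, the iPS line differed from the ES line by -2.89 in Col3a1, -2.75 in Col2a1, 1.47 in Col4a1 and 1.68 in Col4a2, with a fibrillar median of -0.76 and a type IV median of -0.083.

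EpiSC iPS cells were set against EpiSC. Of the 37 chains none rose and 7 fell in the EpiSC iPS arrays (limma, with 1 higher at an unadjusted p under 0.05), where 12.1% of all genes rose and 8.97% fell (9.05% and 11.3% after quantile normalization). The arrays of the group were far apart: Col1a1 was 6.86 and 3.66 in EpiSC iPS replicates 1 and 2, against 6.37 and 5.88 in EpiSC, and Col4a1 was 2.82 and -0.07, against 2.47 and 2.22. Replicate 1 lay above EpiSC in both chains and replicate 2 below it. Both EpiSC iPS arrays lie on slide 6 and the EpiSC arrays on slides 1 and 3, so slide and group cannot be told apart directly. Of gene spots 51.2% and 40.5% stood well above background on the EpiSC iPS arrays, against 55.9% and 71.7% on those of EpiSC.

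The 7 that fell were chains lower on both EpiSC iPS arrays than on both EpiSC arrays. Col2a1 was 1.60 and -0.45, and Col6a3 2.49 and 0.23, on EpiSC iPS replicates 1 and 2. Col8a2 was at least 7.38-fold, Col9a3 at least 2.93-fold and Col15a1 at least 1.18-fold lower, since neither array measured them well above background. Col22a1 differed by -3.14 ± 0.32 (adjusted p 6.92e-05), Col2a1 by -2.34 ± 0.59, Col20a1 by -2.12 ± 0.20 and Col6a3 by -1.91 ± 0.60. Levels of Col22a1 were -0.86 and -1.83 in EpiSC iPS cells, against 2.0 and 1.58 in EpiSC.
Without the 2 arrays that lie apart, 1 EpiSC iPS array remained, so only differences are given. They were 2.21 for Col11a1, 1.05 for Col5a3, 1.03 for Col5a1, 0.74 for Col1a1 and 0.47 for Col4a1. Those of Col22a1 at -2.65, Col20a1 at -2.25, Col2a1 at -1.31 and Col6a3 at -0.78 stayed negative.

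NOD ES cells set against mESM cells compare ES cells of different strains. In NOD ES cells 8 of the 37 chains rose and 1 fell, where 5.86% of all genes rose and 3.06% fell (4.43% and 3.85% after quantile normalization, 4.49% and 6.57% in the deposited value table). Of the fibrillar chains 4 of 11 rose, with a median of 1.96, while the type IV median was 0.14 and the median of all genes 0.22. Col4a1 and Col4a2 differed by 0.19 ± 0.67 and 0.14 ± 0.66, and the smallest adjusted p of the 5 type IV chains was 0.0603 for Col4a5.

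Col3a1 stood at 3.02, 1.67 and 1.46 in NOD ES cells, against -2.91 and -2.84 in mESM cells. It rose by 4.92 ± 0.56, 30.3-fold, with an adjusted p of 0.000956, and all NOD ES arrays were far above both mESM arrays. Col6a3 rose by 4.63 ± 0.55, Col1a1 by 3.21 ± 0.77, Col1a2 by 2.98 ± 0.72 and Col5a2 by 2.95 ± 0.58. Col6a1 was at least 11.1-fold, Col12a1 at least 3.96-fold and Col15a1 at least 2.19-fold higher, and Col9a2 fell, at -0.75 ± 0.18.
With both arrays that lie apart left out, 12 chains rose and 3 fell, where 16.6% of all genes rose and 9.22% fell. With the mESM arrays averaged 2 chains passed, and these groups share no slide, so slide and group cannot be told apart directly. The epiESM array, which stands alone and was not tested, had 6.00 for Col1a1, 5.84 for Col1a2 and 3.57 for Col3a1, against 1.01 and 0.99, 1.57 and 1.51, and -2.91 and -2.84 in mESM cells. Its Col4a1 and Col4a2 were 0.99 and 0.98, against 0.30 and 0.31 for Col4a1 and 0.31 and 0.29 for Col4a2. Type I and III chains thus stood well above mESM cells on this array and Col4a1 and Col4a2 by less than 1 log2 unit, while Col5a3 at -0.43 was close to mESM cells (-0.64 and -0.50) and Col11a2 at -3.00 below them (-2.24 and -2.21). Col4a5 was at -2.11 on the epiESM array and was well above background on neither mESM array.

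Medians over each class were taken with any group that no array measured well above background at its bound, a choice made after the data were seen. The median of the fibrillar chains above the mESM mean was 2.38 and 2.47 in the iPS line, 4.05 to 4.33 in the ES line, 3.28 and 1.73 in EpiSC iPS cells, 3.42 and 3.48 in EpiSC, 2.67, 1.84 and 1.23 in NOD ES cells and 3.66 in epiESM cells. The type IV median was 3.65 and 2.64 in the iPS line, 3.34 to 3.64 in the ES line, 2.22 and -0.41 in EpiSC iPS cells, 1.89 and 1.51 in EpiSC, 1.08, -0.35 and -0.32 in NOD ES cells and 0.67 in epiESM cells. The iPS line was thus above EpiSC in type IV chains and below it in fibrillar chains, the 2 lines overlapped in type IV chains, and NOD ES replicates 2 and 3 were above the mESM mean in fibrillar chains and below it in type IV chains.

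Markers of fibroblasts other than collagens followed the fibrillar chains in some comparisons and not in others. Of 16 such genes 9 rose and none fell in the EpiSC-like lines against NOD ES cells (median 2.58). In EpiSC against mESM cells 11 rose and none fell (median 4.09), and in NOD ES against mESM cells 5 rose and none fell (median 1.91). Of all genes 16.7%, 11.9% and 5.86% rose in these comparisons, with medians of -0.27, -0.34 and 0.22. Without NOD ES replicate 1 and EpiSC iPS replicate 2, 16, 14 and 11 markers rose and 0, 0 and 1 fell. Their medians were then 3.06, 4.09 and 1.51, and of all genes 23.4%, 20.8% and 16.6% rose. In the iPS line against the ES line none rose and 4 fell (median -1.51), where 14.1% of all genes rose and 11.6% fell. In the lines against EpiSC 3 rose and none fell, where 7.86% of all genes rose and 8.2% fell. The median was 1.14 beside a fibrillar median of -0.01, and within slide 1 the medians were 1.42 and 0.045. Per array the median of this list above the mESM mean was 4.29 and 3.68 in the iPS line, 5.20 to 5.47 in the ES line, 4.17 and 1.73 in EpiSC iPS cells, 3.94 and 3.74 in EpiSC, 3.53, 1.50 and 1.51 in NOD ES cells and 3.86 in epiESM cells.
The summed signal of the 16 genes, in multiples of the 75th percentile, was 471 and 555 in the iPS line, 379 to 549 in the ES line, 785 and 58.4 in EpiSC iPS cells, 234 and 208 in EpiSC, 285, 63.5 and 59.2 in NOD ES cells, 219 in epiESM cells and 34.9 and 40.6 in mESM cells. The summed fibrillar signal was 180 and 147 in the iPS line, 298 to 415 in the ES line, 292 and 37.6 in EpiSC iPS cells, 223 and 204 in EpiSC, 120, 38.5 and 36.3 in NOD ES cells, 158 in epiESM cells and 7.95 and 7.86 in mESM cells. Both sums were lowest in mESM cells. The marker sums of the 2 lines overlapped, while the fibrillar sums were lower in the iPS line. Bright genes weigh most in such a sum, and S100a4, the brightest marker on both iPS line arrays, stood at 7.83 and 7.79 there. The per-array medians of the marker list did not overlap between the lines and were lower in the iPS line. Between 8 and 16 of the 16 marker genes were well above background on an array, and Dcn, the proteoglycan decorin, averaged 4.44 in the iPS line, 5.25 in the ES line, 0.53 in EpiSC iPS cells, 3.51 in EpiSC, -0.77 in NOD ES cells and -4.01 in mESM cells. Postn, periostin, was not well above background on either mESM array. The part of fibroblast RNA in the collagen differences was not tested.

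**Figure D4:**
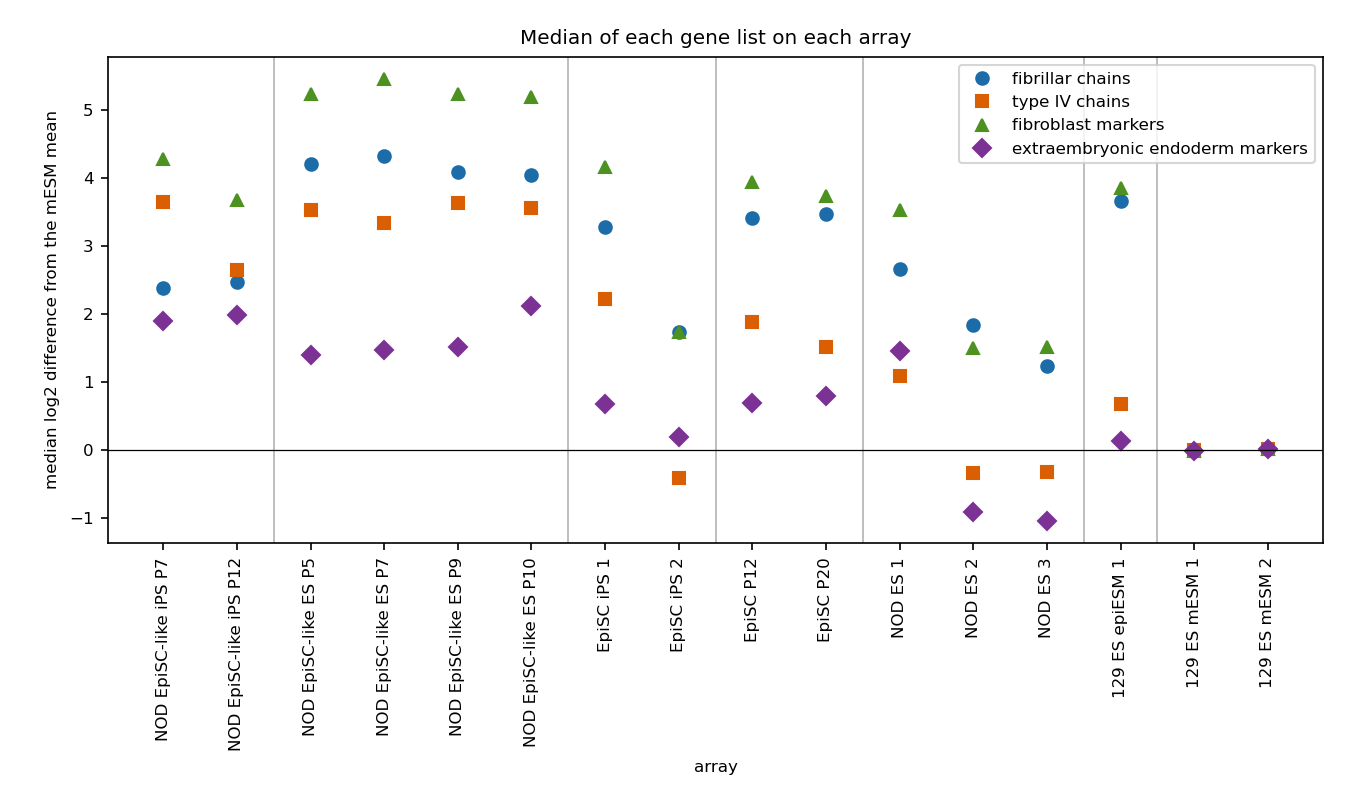
Median of each gene list on each of the 16 arrays, as the log2 difference from the mean of the mESM arrays with unmeasured groups at their bound, with circles for the 11 fibrillar chains, squares for the 5 type IV chains, triangles for the 16 fibroblast markers and diamonds for the 12 extraembryonic endoderm markers. In the iPS line the type IV median (3.65 and 2.64) lies above the fibrillar one (2.38 and 2.47), and on the other arrays except those of mESM cells it lies below.

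Of the 12 extraembryonic endoderm markers 8 rose and none fell in the EpiSC-like lines against NOD ES cells, with a median of 2.84. Of all genes 16.7% rose and 22% fell there. The summed signal of the markers was 27.1 and 23.0 in the iPS line and 19.1 to 22.3 in the ES line, against 3.79, 1.61 and 1.66 in NOD ES cells. Foxa2 rose by 5.30 ± 0.37, Sox17 by 3.63 ± 0.65 and Dab2 by 3.54 ± 0.41, and the yolk sac protein Afp was at least 7.35-fold higher. Pdgfra stands in this list and in that of the fibroblast markers, and Foxa2 also marks the primed epiblast. In the iPS line against the ES line 2 of the 12 rose and none fell, where 14.1% of all genes rose and 11.6% fell. The list median was 0.30, beside 0.28 for all genes. Afp rose by 5.13 ± 0.89 and Amn by 1.64 ± 0.36, while Cubn differed by -2.01 without passing. The part of endoderm cells in the type IV differences was not tested. In EpiSC the summed signal of this list was 27.8 and 28.8, most of it from Foxa2, and without Foxa2 the sum was 20.3 and 17.1 in the iPS line, 10.8 to 12.7 in the ES line and 8.87 and 9.28 in EpiSC.

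The enzymes and partners that handle collagen are set beside all genes, of which 16.7% rose and 22% fell in the lines against NOD ES cells. In EpiSC against mESM cells 11.9% of all genes rose and 12.7% fell, and in the iPS against the ES line 14.1% and 11.6%. Of 19 genes for folding and modification in the endoplasmic reticulum 16 rose and none fell in the EpiSC-like lines against NOD ES cells, with a median of 1.65. Among them P3h3, a prolyl 3-hydroxylase, rose by 2.92 ± 0.39, and Serpinh1, the collagen chaperone HSP47, by 2.36 ± 0.43. Serpinh1 stood at 7.84 and 8.13 in the iPS line and at 6.85, 7.26, 6.91 and 6.55 in the ES line, against 5.90, 4.65 and 4.69 in NOD ES cells. In EpiSC against mESM cells 3 rose and 2 fell, and in the iPS line against the ES line 6 rose and none fell, led by the prolyl 4-hydroxylase chains P4ha1 at 2.35 ± 0.33 and P4ha2 at 2.15 ± 0.25.
Of 12 genes for procollagen processing and cross-linking 5 rose and 1 fell in the lines against NOD ES cells. Bmp1, which removes the C-terminal propeptide, rose by 3.05 ± 0.60 and Adamts2, which removes the N-terminal one, by 2.79 ± 0.76, while Pcolce2 fell, at -2.47 ± 0.25. In EpiSC against mESM cells 6 rose and 1 fell, and Adamts2 rose by 4.71 ± 1.05. Of 8 turnover genes 6 rose and none fell in the lines, among them the gelatinase Mmp2 by 3.56 ± 0.32. Of 10 collagen receptors 4 rose and none fell, among them Mrc2, which takes up collagen, by 2.66 ± 0.70 and Ddr1 by 2.61 ± 0.30.

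Of 10 other basement membrane genes, such as laminin chains and nidogens, 7 rose and none fell in the lines against NOD ES cells. Of all genes 16.7% rose and 22% fell there. In EpiSC against mESM cells 3 of the 10 rose and 4 fell, where 11.9% of all genes rose and 12.7% fell. Lama1, the laminin chain of the earliest embryonic basement membranes, stood at 4.28 and 3.28 in the iPS line, at 2.46, 2.29, 2.65 and 2.74 in the ES line, at -1.95 and -2.19 in EpiSC and at 1.00 and 0.95 in mESM cells. It was thus above mESM cells in both NOD lines and below them in EpiSC. Lama1 rose by 2.90 ± 0.24 in the lines against NOD ES cells and by 5.22 ± 0.28 (adjusted p 4.24e-06) against EpiSC, and fell in EpiSC against mESM cells, at -3.04 ± 0.34. Lamb1 rose by 3.08 ± 0.28 in the lines against NOD ES cells and by 1.94 ± 0.33 against EpiSC, beside the rises of Col4a1 and Col4a2 in both comparisons.

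Probes of 1 gene did not always move together. Of 28 further member probes tested, 20 had the sign of the probe used in the EpiSC-like lines against NOD ES cells and 14 in the iPS against the ES line, and no gene had probes called in opposite directions in any of 6 comparisons. The probe used for Col4a6 lies at chrX:135831206-135831265 (build mm7, per the files) and was flat. Another Col4a6 probe, A_52_P516409 at chrX:135829764-135829823, was well above background on all arrays of the EpiSC-like lines and EpiSC and on none of the EpiSC iPS, NOD ES, epiESM and mESM arrays.
That probe stood at 0.40 and 0.63 in the iPS line and at 2.14, 1.98, 1.75 and 1.68 in the ES line, against -2.23, -5.34 and -4.77 in NOD ES cells. It was at least 20.1-fold higher in the lines than in NOD ES cells (adjusted p 2.92e-05) and at least 35.7-fold higher in EpiSC than in mESM cells (adjusted p 0.000548), in a fit of each probe on its own that was chosen after the data were seen.
For Col2a1 the probe used and the probe A_52_P216436 overlap, at chr15:97979237-97979296 and chr15:97979257-97979316. They differed in mESM cells relative to the other groups: EpiSC exceeded mESM cells by 4.59 ± 0.59 with the probe used and by 0.88 ± 0.45 with A_52_P216436, which did not pass (adjusted p 0.19). NOD ES cells set against mESM cells gave 1.70, not passing, with the probe used and fell with A_52_P216436, at -1.61 ± 0.41 (adjusted p 0.0386). In the lines against NOD ES cells both probes rose, by 1.97 and 1.59. Of the 3 tested probes of Col2a1 the remaining one had the opposite sign there, without passing. Its values are given with those of other probes below.

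**Figure D5:**
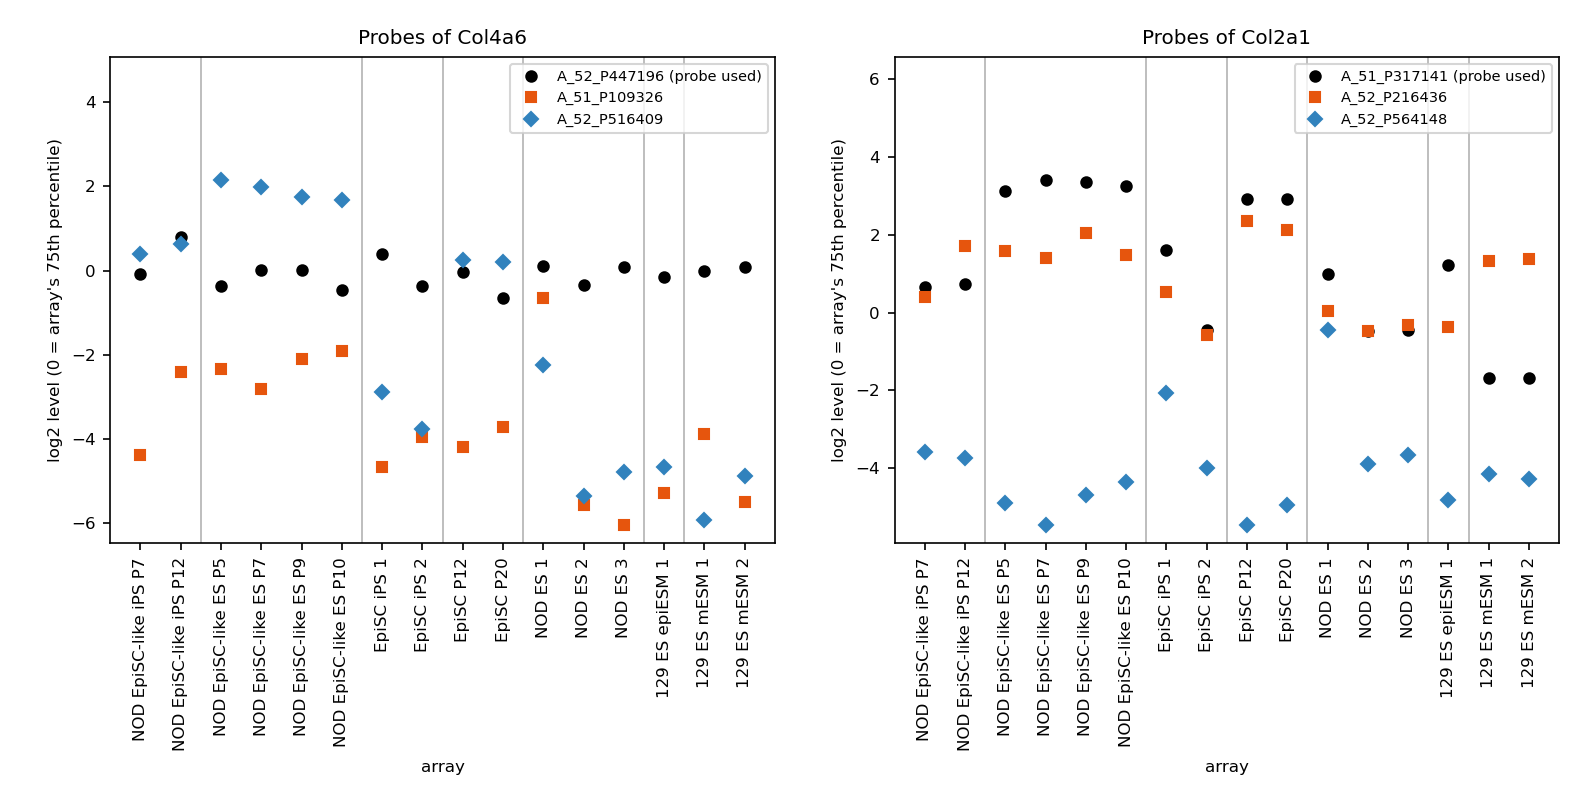
Log2 level of each tested probe of Col4a6 (left) and Col2a1 (right) on each of the 16 arrays, where black points are the probe used. The Col4a6 probe A_52_P516409 lies between 0.20 and 2.14 on the arrays of both EpiSC-like lines and EpiSC and below -2 on all others, while the probe used stays between -0.65 and 0.80.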

How the data were processed

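Each of the 16 arrays was one-colour, and its spot intensity (the processed signal, background-subtracted) was deposited as Feature Extraction 10.1.1.1 output of array design 014868 with an mm7 grid, per the file headers. Limma is named in the submitters' processing notes, with no parameters given. A value table was also deposited on the log2 scale, and each of its columns followed the mean signal of its own array after quantile normalization. Here outlier spots were set to missing, log2 of the signal was taken minus the 75th percentile of the array, spots of a probe were averaged, and 34334 of 41174 gene probes well above background on at least 2 arrays were kept, 1 a gene by highest mean, giving 23192 genes. limma 3.58.1 (R 4.3.3) fitted 1 mean for each of the 7 groups over all 16 arrays, with eBayes and Benjamini-Hochberg adjustment at 0.05. The scripts were tested on simulated data. The number of arrays limits the precision.

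Members, gene lists and tests were chosen with earlier results of these data known. In each comparison all tested fibrillar and type IV chains were named, at most 8 other called chains by size, and at most 4 genes of each list, called ones first. A probe that no array of a group measured well above background has a bound there, given as "at least" a fold, computed against the dimmest signal still well above background. The 6 slides were read from the files; within-slide values are given for chains of the comparisons in which a slide held both sides. Promoter sequences come from RefSeq's table of GRCm38.p6 and probe positions from the files (mm7), and no position was carried from one build to the other. Alternatives were other normalizations, filters, probe rules, slide terms and sets of arrays.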

Additional observations from a re-analysis of the deposited data

Results flagged for a closer look

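Within the 4 arrays of the EpiSC-like ES line, 3 of the 37 chains had 1 array apart from the other 3 by more than 0.829 of the range of the group. These were Col1a2 at passage 7 (gap over range 0.862), Col6a3 at passage 7 (0.928) and Col22a1 at passage 10 (0.836). Chance marks about 1 in 20 groups in this way.

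The state difference, EpiSC-like lines minus NOD ES cells in NOD cells set against EpiSC minus mESM cells in non-NOD cells, differed by the interaction test in 5 chains. It was -5.06 for Col3a1, -4.65 for Col6a3, -3.51 for Col5a2 and -2.62 for Col2a1 on the log2 scale, each smaller in NOD cells. The difference was smaller in NOD cells for all 5 primed epiblast markers as well, so strain and the state reached cannot be told apart. The fitted value for Col15a1 was -2.59, but no mESM array measured it well above background, and with those arrays at their bound it was -0.82. With normexp none of the 37 chains passed (limma, 10 at an unadjusted p under 0.05), and of all genes 0.0302% were higher and 0.0992% lower.

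The epiESM array entered no comparison. The median of its fibrillar chains stood 3.66 above the mean of the mESM arrays on the log2 scale, with no test for 1 array.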

How the results depend on the processing

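Of 2773 values of named genes recomputed under other settings, 2274 kept direction and side of the threshold, 122 changed sign while passing under neither setting, 300 no longer passed, 71 came to pass and 6 reversed. The counts of chains called were 26 in the EpiSC-like lines against NOD ES cells, 21 in EpiSC against mESM cells, 7 in EpiSC iPS cells against EpiSC, 6 in the lines against EpiSC, 12 in the iPS against the ES line, 9 in NOD ES against mESM cells and 5 in the interaction. In that order of comparisons, a fixed slide term gave 11 and 11 in the first pair, 2 in the lines against EpiSC, 1 in the iPS against the ES line, 0 in NOD ES against mESM cells (limma, 4 at an unadjusted p under 0.05) and 0 in the interaction (3 unadjusted). Normexp gave 3 in EpiSC iPS cells against EpiSC, 1 in the lines against EpiSC, 1 between the lines, 1 in NOD ES against mESM cells and 0 in the interaction (10 unadjusted). Without NOD ES replicate 1 and EpiSC iPS replicate 2 together the counts were 17, 25, 15 and 17 in the last 4 comparisons. More of all genes passed in that setting too, such as 28.6% and 22% between the lines, against 14.1% and 11.6%. A fixed slide term left 13.2% of all genes rising and 13.3% falling in the lines against NOD ES cells. The shares were 4.25% and 4.48% in EpiSC against mESM cells and 5.98% and 5.66% in the lines against EpiSC. Between the lines they were 4.93% and 4.27%. No gene passed in NOD ES against mESM cells, and in the interaction 0.841% were higher and 0.354% lower. With only the arrays of the groups compared the counts were 2, 16, 22, 0 (16 unadjusted) and 12 in the last 5 comparisons. With the mESM arrays averaged they were 2 in NOD ES against mESM cells and 2 in the interaction. Leaving out 1 array in turn gave 22 to 27, 17 to 18, 4 to 19 (19 without EpiSC iPS replicate 1), 0 to 5 (0 without either EpiSC array, with 8 and 6 unadjusted), 5 to 11, 2 to 10 and 2 to 6. With normexp 1.53% of all genes rose and 1.69% fell in EpiSC iPS cells against EpiSC. In the lines against EpiSC the shares were 1.61% and 1.76%. Between the lines they were 0.00431% and 0.254%, and in NOD ES against mESM cells 0.0776% and 0.0647%. In the interaction 0.0302% were higher and 0.0992% lower. The cause of these shifts was not tested. No paired analysis was possible because the groups compared share fewer than 2 replicate or passage numbers that the labels tie to a common culture.

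With normexp Col17a1 was 1.04 in the lines against NOD ES cells and 1.50 in the iPS against the ES line, Col18a1 was -0.92 in the iPS against the ES line and Col15a1 0.12 in the interaction. Without the 2 arrays Col5a1 was 1.03 and Col5a3 1.05 in EpiSC iPS cells against EpiSC. Other probes, a choice made after the data were seen, reversed 13 values. In the lines against NOD ES cells these were Col23a1 at -0.059, Col11a1 at -0.25, Col2a1 at -1.59 and Col27a1 at -0.44. In EpiSC against mESM cells they were Col4a6 at 5.62 and Col2a1 at -0.99, and in EpiSC iPS cells against EpiSC Col4a6 at -3.55 and Col2a1 at 2.17. Both Col4a6 values are fitted ones and no bounds, since that probe was well above background on no mESM and no EpiSC iPS array. In the iPS against the ES line they were Col24a1 at -1.42, Col22a1 at 0.51 and Col2a1 at 1.19, and Col2a1 was -1.61 in NOD ES against mESM cells and 0.71 in the interaction. Signal over background limits NOD ES replicate 1 most, with 26.3% of gene spots well above it.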

Other observations

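On all arrays of the EpiSC-like lines and EpiSC, 9 of the 37 chains were higher than on every array of EpiSC iPS, NOD ES, epiESM and mESM cells. This pattern was chosen after the values were seen and not tested. The share of all genes with it was not counted, so the count says nothing particular to collagens. The 9 chains were Col22a1, Col8a2, Col9a3, Col20a1, Col16a1, Col15a1, Col6a3, Col6a1 and Col14a1, by width of the gap, which was under 0.1 for Col6a1 and Col14a1. Col22a1 lay at 1.23 and 1.39 in the iPS line, at 2.37 to 2.77 in the ES line and at 2.0 and 1.58 in EpiSC, and at -0.71 or below on the other arrays. Col8a2, whose product lies in the membrane beneath the corneal endothelium, lay at -0.54 or above in the lines and EpiSC, against -2.38 or below elsewhere. Col9a3, a chain of cartilage type IX collagen, lay at -1.09 or above, against -2.56 or below. Col20a1 lay at -0.82 or above, against -1.55 or below. Unlike Col1a1 and Col3a1, these 4 chains were no higher on the epiESM array (-1.94, -3.15, -3.81 and -2.50 for Col22a1, Col8a2, Col9a3 and Col20a1) than on the NOD ES arrays, except Col8a2, which lay within the NOD ES range. The epiESM array had the highest Col24a1 level of all 16, at 0.25.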
